A study of Rattus norvegicus with 12 samples.

Results

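The S100 proteins are small calcium-binding proteins, and 10 of their genes were examined here in a pair of related rat cell lines. The 10 genes were given by name (S100a1, S100a4, S100a6, S100a8, S100a9, S100a10, S100a11, S100a13, S100b and S100g), and each was matched to the probe sets whose single annotated gene symbol is that name. This gave 10 probe sets, 1 for each gene, of the 31099 on the array, which stand for 14218 genes with a single symbol. The family was chosen by its signal difference between the lines, which was already known, so that difference is given below as a description without a test of the 10 genes.

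CRI-G1 is an insulin-secreting cell line from a rat islet tumour. CRI-G1-RS, labelled Rotenone sensitive, is a subclone kept as 1 line after a spontaneous change in the cultures, and CRI-G1-RR, labelled Rotenone resistant, is the original clone. Total RNA from 6 untreated CRI-G1-RS samples and 6 untreated CRI-G1-RR samples was measured on 12 Affymetrix rat expression arrays, to find genes that differ between cells of unequal vulnerability to mitochondrial inhibitors. The labels give 6 different passages, collected in pairs without saying which samples pair, so the spread between arrays is that between passages of 1 subclone and 1 parental clone, and not that between independently isolated subclones.

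S100 proteins mostly form dimers in which each subunit carries a pair of EF-hand loops. Binding of calcium opens a hydrophobic surface on the dimer, which then docks onto a partner protein, so the family acts as a set of calcium-dependent adaptors rather than as enzymes. Several members also leave the cell and act on surface receptors. The genes are expressed in cell-type-restricted patterns, and many of them lie side by side in a conserved cluster.

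Signals are deposited linear intensities per probe set, and each mean and SD was taken over them. Differences are on the log2 scale, taken after quantile normalization as log2(signal + 16), and a negative value is a lower signal in CRI-G1-RS cells. The added 16 understates the difference of genes with low signals. Signals of different probe sets are not comparable as levels, so no gene is set against another by its signal, and the sums over marker lists, which the brightest probe sets carry, are compared only between the lines. In bulk RNA, fewer expressing cells and less RNA per cell cannot be told apart.

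Of the 10 genes, 6 had every CRI-G1-RS array below every CRI-G1-RR array, namely S100g, S100a4, S100a6, S100a13, S100a1 and S100a10. The same 6 passed an adjusted p of 0.05 from limma across all probe sets, each as lower in CRI-G1-RS cells, and 0 were higher. Over all 31099 probe sets, 31.7% passed this threshold, 15.4% as lower and 16.3% as higher, and 9.97% had every CRI-G1-RS array below every CRI-G1-RR array. At least 2-fold lower, past the same threshold, were 4 of the 10 (S100g, S100a4, S100a6 and S100a13) and 2.12% of all probe sets. Because the genes were chosen by this contrast, nothing is read from their counts. The median log2 difference of the 10 genes was -0.62, beside 0.01 over all probe sets.

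**Figure D1:**
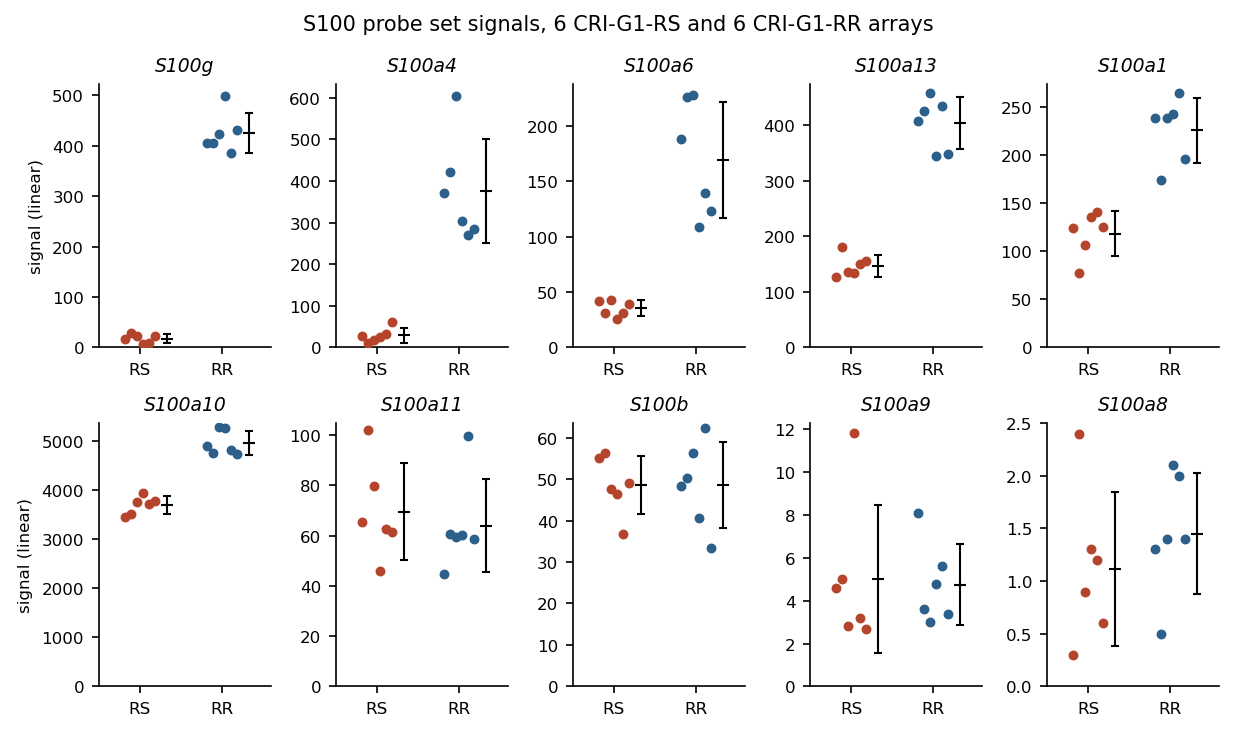
Linear signal (vertical axes, each starting at 0 and with its own scale) of the 10 S100 probe sets on 6 CRI-G1-RS arrays (left in each panel) and 6 CRI-G1-RR arrays (right), in replicate order 1 to 6. Each point is 1 array and each bar is the mean with 1 SD. In 6 panels all CRI-G1-RS points lie below all CRI-G1-RR points, and in the panels of S100a11, S100b, S100a9 and S100a8 the points overlap.

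The widest difference was that of S100g, the small vitamin D-dependent calbindin, which ferries calcium through absorptive epithelial cells of the gut. Its signals were 5.93 at the lowest, 18.9 at the median and 29.3 at the highest in CRI-G1-RS cells, against 385, 414 and 499 in CRI-G1-RR cells. All CRI-G1-RS arrays were near the bottom of the signal range, whereas the CRI-G1-RR arrays were close to one another, with a coefficient of variation of 9.34%. The means were 17.4 ± 9.19 (SD, n = 6) in CRI-G1-RS cells and 425 ± 39.7 (SD, n = 6) in CRI-G1-RR cells, so that the CRI-G1-RS mean was 4.09% of the other. The log2 difference was -3.77 with a standard error of 0.17, and with a pseudocount of 1 in place of 16 it was -4.72.

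S100a4 and S100a6 are the members best known from motile and mesenchymal cells. S100a4, also called metastasin, binds the heavy chain of nonmuscle myosin, and S100a6, also called calcyclin, was first described as a gene of growth-stimulated cells. S100a4 had signals of 9.47, 25.9 and 61.4 in CRI-G1-RS cells (lowest, median and highest), against 269, 338 and 605 in CRI-G1-RR cells. Its means were 28.8 ± 17.98 (SD, n = 6) in CRI-G1-RS cells and 376 ± 126 (SD, n = 6) in CRI-G1-RR cells, a log2 difference of -3.17 (standard error 0.25). The lines did not overlap, although the spread within each of them was wide, with coefficients of variation of 62.5% in CRI-G1-RS cells and 33.5% in CRI-G1-RR cells. S100a6 had signals of 25.5, 35.4 and 43.1 in CRI-G1-RS cells, against 109, 164 and 228 in CRI-G1-RR cells, a log2 difference of -1.83 (standard error 0.17). Its means were 35.3 ± 7.14 (SD, n = 6) in CRI-G1-RS cells and 169 ± 52.4 (SD, n = 6) in CRI-G1-RR cells. The arrays again did not overlap, and the CRI-G1-RS mean was 20.9% of the CRI-G1-RR mean for S100a6 and 7.65% for S100a4. With a pseudocount of 1 the log2 difference was -2.22 for S100a6 and -3.83 for S100a4.

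Within CRI-G1-RR cells, both genes separated replicates 1 to 3 from replicates 4 to 6. S100a4 lay between 372 and 605 in replicates 1 to 3 and between 269 and 303 in replicates 4 to 6, and S100a6 lay between 188 and 228 in replicates 1 to 3 and between 109 and 139.8 in replicates 4 to 6. These were 2 of the 10 genes, and 13.2% of all probe sets separated the same arrays in either direction. In CRI-G1-RS cells 10.8% of all probe sets did so, among them those of S100a1 and S100a11. The labels do not say in what the passages differed, and what separates them was not tested. Against all 6 CRI-G1-RS arrays, the log2 difference of S100a4 was -3.47 with CRI-G1-RR replicates 1 to 3 alone and -2.87 with replicates 4 to 6 alone, and that of S100a6 was -2.15 and -1.51. All CRI-G1-RS arrays of both genes lay below all CRI-G1-RR arrays. The direction was thus fixed for either subset, and nothing is read from it.

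S100a13, which takes part in the copper-dependent release of growth factors and interleukins that lack a signal peptide, had signals of 126, 143 and 179.7 in CRI-G1-RS cells, against 345, 417 and 458 in CRI-G1-RR cells. Its means were 147 ± 19.4 (SD, n = 6) in CRI-G1-RS cells and 403 ± 47.01 (SD, n = 6) in CRI-G1-RR cells, without overlap between arrays. The log2 difference of S100a13 was -1.38 (standard error 0.10), and the CRI-G1-RS mean was 36.4% of the CRI-G1-RR mean. S100a1, a regulator of calcium release and uptake in heart muscle, had signals of 77.7, 125 and 141 in CRI-G1-RS cells, against 174, 238.5 and 265 in CRI-G1-RR cells. S100a1 had means of 118 ± 23.2 (SD, n = 6) in CRI-G1-RS cells and 226 ± 33.7 (SD, n = 6) in CRI-G1-RR cells. The log2 difference of S100a1 was -0.88 (standard error 0.14), and its CRI-G1-RS mean was 52.4% of the CRI-G1-RR mean. The gap between the lines was wide for S100a13 and narrow for S100a1, whose highest CRI-G1-RS array and lowest CRI-G1-RR array were 141 and 174.

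S100a10, also called p11, is the member that does not respond to calcium, because its loops are fixed in the open form. It is mostly found bound to annexin A2 at the plasma membrane. Its signals were 3446, 3736 and 3949.5 in CRI-G1-RS cells, against 4742, 4857 and 5288 in CRI-G1-RR cells. The arrays of each line were tightly grouped, with coefficients of variation of 5.03% and 5.07%, so the lines separated although the CRI-G1-RS mean was still 74.5% of the CRI-G1-RR mean (3692 ± 186 in CRI-G1-RS cells and 4959 ± 251.3 in CRI-G1-RR cells, SD, n = 6 each). The log2 difference was -0.36 (standard error 0.06), the smallest of the 6, and it was -0.44 when arrays were centred on their medians instead of quantile normalized. The annotation lists 1 S100a10 pseudogene, whose transcripts the probe set might share.

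The other 4 genes overlapped between the lines. S100a11, a partner of annexin A1, had a mean of 69.5 ± 19.3 (SD, n = 6) in CRI-G1-RS cells and 63.9 ± 18.5 (SD, n = 6) in CRI-G1-RR cells. Its log2 difference was 0.08, with a 95% interval of -0.29 to 0.44, which leaves room for a moderate change either way. The annotation holds 2 S100a11-like genes and 5 S100a11 pseudogenes, so this probe set may not measure a single gene. S100b, abundant in astrocytes and Schwann cells, had 48.5 ± 7.05 (SD, n = 6) in CRI-G1-RS cells and 48.5 ± 10.4 (SD, n = 6) in CRI-G1-RR cells, with an interval of -0.22 to 0.20 around a log2 difference of -0.01.

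S100a8 and S100a9 form calprotectin, the metal-sequestering complex that fills the cytosol of neutrophils. S100a9 had signals of 2.67 to 11.8 in CRI-G1-RS cells and 2.97 to 8.11 in CRI-G1-RR cells, and S100a8 had 0.252 to 2.41 in CRI-G1-RS cells and 0.546 to 2.07 in CRI-G1-RR cells. The arrays overlapped at signals so low that a decrease could not have been detected, and the added 16 holds both log2 differences close to 0. That of S100a8 was -0.03, and -0.23 with a pseudocount of 1. Detection calls were not used here, so these genes are described as having very low signals and not as absent. All 7 measured markers of neutrophils and macrophages also had mean signals under 50 over the 12 arrays. Of them, 0 differed between the lines at an adjusted p of 0.05 from limma, where 39.2% of all genes did. At signals this low a difference may go uncalled, so nothing is read from this 0.

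**Figure D2:**
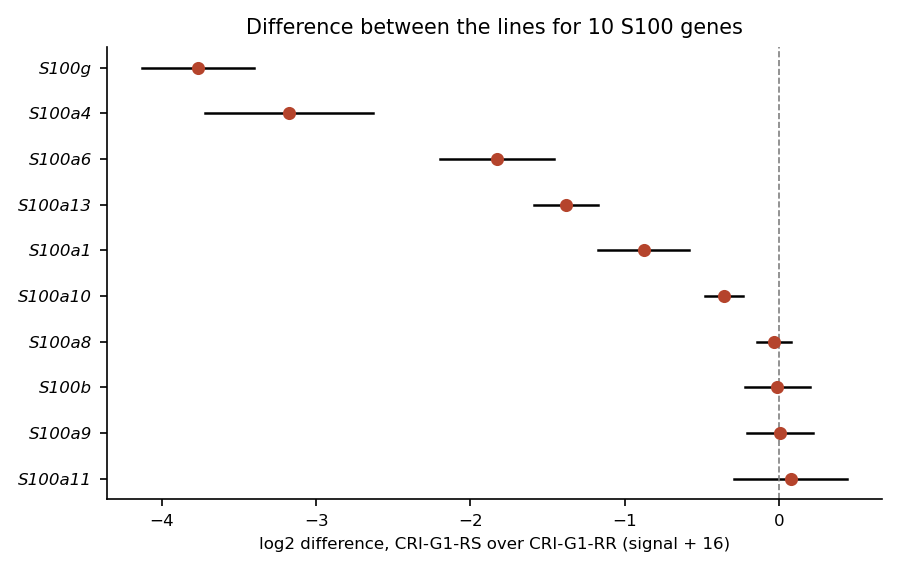
Log2 difference of CRI-G1-RS over CRI-G1-RR (horizontal axis, from log2(signal + 16) after quantile normalization) for the 10 S100 genes, with 95% intervals from limma as bars. S100g lies at -3.77, S100a4 at -3.17 and S100a6 at -1.83, while the bars of S100a8, S100b, S100a9 and S100a11 cross 0.

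A mean signal of at least 50 over the 12 arrays was reached by 7 of the 10 probe sets. S100g, S100a4 and S100a6 reached it only through CRI-G1-RR cells, so such a filter would keep them because they differ. The log2 differences of the 10 genes shifted by less than 1 SD between replicates in 165 of 170 values recomputed under other settings. Of the 6 lower genes, 0 changed sign. Most of these values came from fits without 1 array, which can move a mean only a little, and the replicate block gave the same differences. The 5 wider shifts were those of S100g, S100a4, S100a6 and S100a8 with a pseudocount of 1 and of S100a10 with array medians. The count of 165 is therefore no measure of stability.

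Markers of the labelled cell type gave signals in both lines, described here without detection calls. Of 11 markers of beta and endocrine cells, 9 were measured, 0 had a mean signal under 50, and in CRI-G1-RS cells 6 rose and 0 fell at an adjusted p of 0.05 from limma, beside 21.0% of all genes higher and 18.3% lower. The summed signal of these markers was 24720 to 28920 in CRI-G1-RS arrays and 20920 to 24340 in CRI-G1-RR arrays. Fibroblast markers, which bear on S100a4 and S100a6, summed to 338 to 428 in CRI-G1-RS cells and 258 to 328 in CRI-G1-RR cells over 8 genes, 5 of them with mean signals under 50. The single gene of that list that rose was Pdgfra, a growth factor receptor, with 153 ± 27.7 (SD, n = 6) in CRI-G1-RS cells and 83.4 ± 14.96 (SD, n = 6) in CRI-G1-RR cells (adjusted p = 4.85e-04 from limma), and the other 7 did not pass. Glial markers, which bear on S100b, summed to 393 to 558 in CRI-G1-RS cells and 420 to 552 in CRI-G1-RR cells over 4 genes, and 0 of them passed the threshold.

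Enterocyte markers, which bear on S100g, moved in both directions. Over 6 measured genes they summed to 1004 to 1141 in CRI-G1-RS cells and 1455 to 1870 in CRI-G1-RR cells. Vil1, which encodes the brush border protein villin, was at 54.9 ± 11.7 (SD, n = 6) in CRI-G1-RS cells and 919 ± 91.3 (SD, n = 6) in CRI-G1-RR cells, a log2 difference of -3.74 (adjusted p = 5.86e-10 from limma). Cdx2, the intestinal homeobox factor, went the other way, with 977 ± 57.2 (SD, n = 6) in CRI-G1-RS cells and 647 ± 85.7 (SD, n = 6) in CRI-G1-RR cells, a log2 difference of 0.59 (adjusted p = 1.08e-04 from limma). Fabp1, Fabp2, Alpi and Apoa4, the defining genes of absorptive enterocytes on this list, all had mean signals under 50. Alpi was the other gene of the list that fell, at 5.70 ± 0.811 (SD, n = 6) in CRI-G1-RS cells and 10.6 ± 3.73 (SD, n = 6) in CRI-G1-RR cells. Markers of ductal and other epithelium summed to 8698 to 10300 in CRI-G1-RS cells and 14760 to 18640 in CRI-G1-RR cells, and 4 of 5 were lower in CRI-G1-RS cells, beside the 18.3% of all genes. The part of these shifts in the S100 differences was not tested.

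The members lie on 3 chromosomes. On the GRCr8 assembly 8 of the 10 are on chromosome 2, S100b is on chromosome 20 and S100g is on chromosome X. From S100a1 to S100a9 the chromosome 2 genes span 199 kb, and S100a11 and S100a10 follow after a further 3.38 Mb. S100a1 and S100a13 are neighbours separated by 673 bases, and S100a4, S100a5 and S100a6 are consecutive, with 2083 and 1060 bases between them.

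The 250 bases before and 50 bases after the transcription start of 6 members were found by symbol in the RefSeq promoter table, with GRCr8 coordinates, and those of 4 are given because the first 3 belong to genes that were lower in CRI-G1-RS cells and the last to a gene of the same chromosome that overlapped between the lines. Capitals mark matches, on either strand, to TATAAA, to GGGCGG (the GC box), to TGANTCA (an AP-1 motif) or to TGACNNNGC (the core of the antioxidant response element bound by Nrf2). The S100a4 window is chr2:178388279-178388578 on the plus strand, S100a6 at chr2:178398287-178398586 on the plus strand, S100a13 at chr2:178296770-178297069 on the plus strand and S100a11 at chr2:181874882-181875181 on the plus strand. The S100a6 window lies inside the annotated span of that gene (178398189 to 178399763), so its start is not the first base of the span. Bases before that span were not searched.
S100a4: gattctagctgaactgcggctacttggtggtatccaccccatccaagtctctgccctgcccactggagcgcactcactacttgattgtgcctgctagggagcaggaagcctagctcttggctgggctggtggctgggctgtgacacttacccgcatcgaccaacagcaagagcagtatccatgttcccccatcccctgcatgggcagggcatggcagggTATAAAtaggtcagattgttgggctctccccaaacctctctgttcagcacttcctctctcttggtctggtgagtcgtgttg
S100a6: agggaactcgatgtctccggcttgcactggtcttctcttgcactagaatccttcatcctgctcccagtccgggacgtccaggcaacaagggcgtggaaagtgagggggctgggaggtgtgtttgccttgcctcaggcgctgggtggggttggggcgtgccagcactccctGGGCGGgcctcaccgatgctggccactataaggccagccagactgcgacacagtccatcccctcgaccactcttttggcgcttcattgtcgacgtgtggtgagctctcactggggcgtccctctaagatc
S100a13: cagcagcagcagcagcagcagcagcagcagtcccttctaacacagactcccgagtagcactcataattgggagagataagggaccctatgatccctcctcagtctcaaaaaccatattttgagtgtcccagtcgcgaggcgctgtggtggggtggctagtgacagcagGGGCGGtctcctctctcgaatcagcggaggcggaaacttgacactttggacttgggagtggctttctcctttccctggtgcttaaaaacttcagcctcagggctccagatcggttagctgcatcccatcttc
S100a11: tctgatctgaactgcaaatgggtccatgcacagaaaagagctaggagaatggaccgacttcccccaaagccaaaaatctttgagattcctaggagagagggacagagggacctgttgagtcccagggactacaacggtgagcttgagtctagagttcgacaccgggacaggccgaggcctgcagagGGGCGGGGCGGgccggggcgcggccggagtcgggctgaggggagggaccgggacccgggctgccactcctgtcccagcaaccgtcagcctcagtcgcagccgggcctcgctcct
S100a4 has a TATAAA match that begins 31 bases before the start and no GC box, and S100a6 and S100a13 have a single GC box each and no TATAAA match. S100a11 has 2 GC box matches, which overlap by 1 base. Of 33469 promoters of this length, 14.2% hold TATAAA, 33.1% GGGCGG, 7.33% TGANTCA and 12.1% TGACNNNGC, and none of the 6 member promoters holds a match to the AP-1 motif or to the antioxidant response core in this window. The matches are a description of the letters and not evidence of binding.

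Relatives of the members were also measured, and how far a lower signal reaches along chromosome 2 was not tested. Of 15 other S100 and S100-fused genes, 7 were measured, and 5 of these had mean signals under 50. In CRI-G1-RS cells 2 were lower and 1 was higher at an adjusted p of 0.05 from limma. Over all genes, 18.3% were lower and 21.0% higher. S100a5, which lies between S100a4 and S100a6, had signals of 2.3 to 4.4 in CRI-G1-RS cells and 10.2 to 53.9 in CRI-G1-RR cells, a log2 difference of -1.23 (adjusted p = 2.56e-04 from limma). All its CRI-G1-RS arrays were below all its CRI-G1-RR arrays, at signals that are low throughout. S100a3, the gene before S100a4 among those measured, had 136 ± 13.97 (SD, n = 6) in CRI-G1-RS cells and 171 ± 23.2 (SD, n = 6) in CRI-G1-RR cells, a log2 difference of -0.31 (adjusted p = 0.0118 from limma). Its lines overlapped.

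S100a14 and S100a16, which lie between S100a13 and S100a3, did not pass the threshold. S100a14 had 65.8 ± 14.8 (SD, n = 6) in CRI-G1-RS cells and 66.6 ± 13.4 (SD, n = 6) in CRI-G1-RR cells. S100a16 had 23.9 ± 7.88 (SD, n = 6) in CRI-G1-RS cells and 37.5 ± 26.3 (SD, n = 6) in CRI-G1-RR cells. S100a1 and S100a13 lie on one side of these genes without a call, and S100a4 to S100a6 on the other. At the low signals of S100a16 (log2 difference -0.35, standard error 0.24) a decrease could have gone uncalled. Tchh, which encodes the hair follicle protein trichohyalin, was the gene that rose, at low signals of 20.7 ± 3.20 (SD, n = 6) in CRI-G1-RS cells and 10.4 ± 5.01 (SD, n = 6) in CRI-G1-RR cells.

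Among 43 genes whose signal averaged 100 or more, taken between S100a1 and S100a10 and from the 20 nearest on each side, 5 were lower and 15 higher in CRI-G1-RS cells at an adjusted p of 0.05 from limma, and their median log2 difference was 0.17. The 43 include S100a3, which is 1 of the 5 lower genes. Over all genes of such signal, 25.2% were lower and 28.6% higher, and the median was 0.03. The lowest of the 43 was Cgn, which encodes the tight junction protein cingulin, at -0.57 (adjusted p = 1.03e-04), and the highest was Mllt11 at 1.22 (adjusted p = 1.31e-07). The members S100a4, S100a6, S100a13 and S100a1 were each lower than any of these 43 genes. The family was chosen by this contrast and the neighbours were not, so nothing is read from that order.

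**Figure D3:**
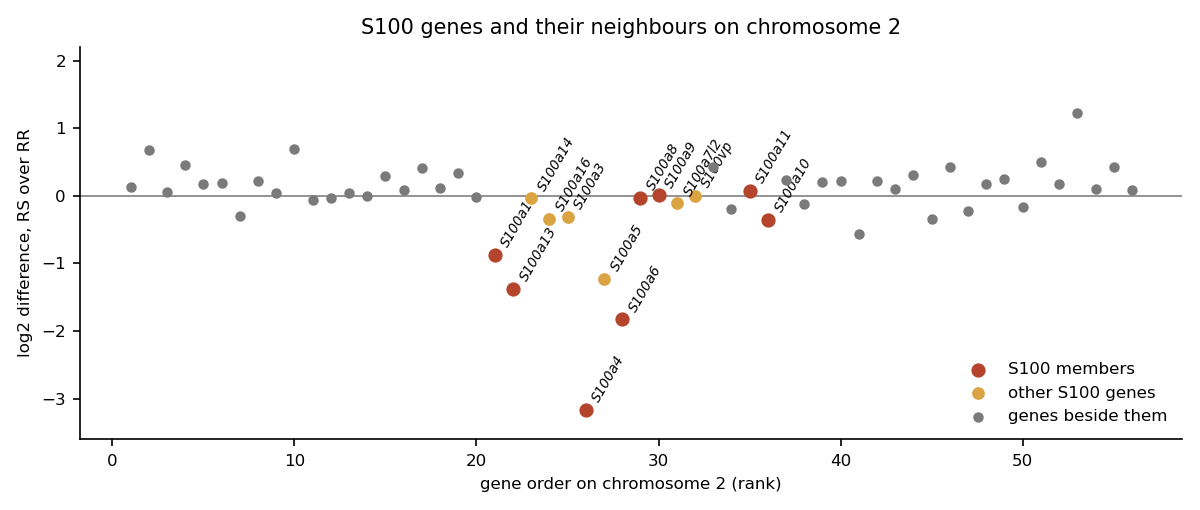
Log2 difference of CRI-G1-RS over CRI-G1-RR (vertical axis) against gene order on chromosome 2 (horizontal axis, rank among the genes shown) for the 8 S100 genes on that chromosome, other measured S100 genes and neighbours whose signal averaged 100 or more. S100a1, S100a13, S100a4, S100a5 and S100a6 lie below the neighbours, which range from -0.57 to 1.22. The family was chosen by this contrast.

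The neighbourhood of S100g on chromosome X, examined after the values were seen, was mixed. Of 41 genes whose signal averaged 100 or more, 10 were lower and 14 higher in CRI-G1-RS cells at an adjusted p of 0.05 from limma. Their median log2 difference was 0.05. Over all genes of such signal, 25.2% were lower and 28.6% higher, with a median of 0.03, so nothing is read from these counts. Ctps2, a CTP synthase whose annotated span overlaps S100g, had a log2 difference of -0.48 (adjusted p = 1.38e-04 from limma). Cltrn, which encodes collectrin, was the lowest at -1.56 (adjusted p = 1.21e-07), and Ap1s2, a subunit of a clathrin adaptor, was the highest at 2.11 (adjusted p = 4.94e-07).

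The proteins that S100 dimers bind were examined next, from a list of 52 partner genes of which 48 were measured. Of these, 11 were lower and 9 higher in CRI-G1-RS cells at an adjusted p of 0.05 from limma, beside 18.3% lower and 21.0% higher over all genes, and the median log2 difference was 0.02, beside 0.02 over all genes. The list as a whole therefore had no common direction. It is described in groups by role, which were drawn up after the values were seen, so their counts are a description only.

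Annexins, the membrane-binding proteins that several S100 dimers bridge, were lower for 6 of 7 genes, where 18.3% of all genes were lower, and for 2 of them (Anxa6 and Anxa7) in the test against a 1.2-fold change. Anxa2, the partner of S100a10, had signals of 1139 at the lowest and 1426 at the highest in CRI-G1-RS cells, against 1644 and 2159 in CRI-G1-RR cells, a log2 difference of -0.49 (standard error 0.09, adjusted p = 6.46e-04 from limma). The lines did not overlap for Anxa2, as they did not for S100a10. Anxa6 and Anxa7 had log2 differences of -0.57 (adjusted p = 6.71e-05) and -0.52 (adjusted p = 4.84e-05), and Anxa4, Anxa5 and Anxa11 lay between -0.26 and -0.36. The call of Anxa5 (adjusted p = 0.0338) was lost in 6 of 12 fits that left out 1 array (adjusted p of 0.0599 to 0.0744, without CRI-G1-RS replicate 1, 5 or 6 or CRI-G1-RR replicate 2, 3 or 4). Anxa1, the partner of S100a11, had 53.8 ± 13.4 (SD, n = 6) in CRI-G1-RS cells and 48.5 ± 11.02 (SD, n = 6) in CRI-G1-RR cells and did not pass (adjusted p = 0.671), as S100a11 did not.

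The deepest difference on the list was that of Plat, which encodes tissue plasminogen activator, a protease that the annexin A2 and S100a10 complex holds at the cell surface. Plat had signals of 58.1 to 92.1 in CRI-G1-RS cells and 733 to 1154.5 in CRI-G1-RR cells, a log2 difference of -3.41 (standard error 0.14, adjusted p = 3.28e-09 from limma). Like S100a4 and S100a6, Plat lay higher in CRI-G1-RR replicates 1 to 3 (1029 to 1154.5) than in replicates 4 to 6 (733 to 783). Anxa2 did too, whereas Myh9 (1074.6 to 1229 against 1237.1 to 1296.5) and Atp2b1 (1115 to 1318.5 against 1402.9 to 1754) separated them the other way. Over all probe sets, 13.2% separated these arrays in either direction. Plau, the urokinase relative of Plat, and Plg, the plasminogen gene, did not pass the threshold, with mean signals of 31.5 and 53.8 in CRI-G1-RS cells and 22.7 and 54.3 in CRI-G1-RR cells.

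Partners in the cytoskeleton, among them those of S100a4, moved in both directions. Of 9 measured genes, 4 were higher and 1 was lower in CRI-G1-RS cells, beside 21.0% and 18.3% of all genes. Myh14, Iqgap1 and Capza2 did not pass. Myh9, the nonmuscle myosin heavy chain that S100a4 binds best, had 983 ± 222 (SD, n = 6) in CRI-G1-RS cells and 1209 ± 81.6 (SD, n = 6) in CRI-G1-RR cells and missed the threshold (log2 difference -0.31, adjusted p = 0.0561 from limma). Replicate 2 of CRI-G1-RS, at 1434, stood far above the other arrays of its line, and without it the log2 difference was -0.43 (adjusted p = 7.91e-05). With all arrays kept, Myh9 passed with array medians (adjusted p = 0.0412) and with the filter at a mean signal of 50 (adjusted p = 0.0304). It also passed with an intensity trend (adjusted p = 0.0302) and with array weights (adjusted p = 0.00558). Myh10, a relative of Myh9, rose to 1159 ± 210.2 (SD, n = 6) in CRI-G1-RS cells, against 807 ± 124 (SD, n = 6) in CRI-G1-RR cells. Its adjusted p was 0.0109 from limma, and its arrays overlapped. Tpm1, a tropomyosin, fell with a log2 difference of -0.68 (adjusted p = 2.20e-05). Capzb and Capza1, subunits of the actin-capping protein that S100b binds, rose with log2 differences of 0.70 (adjusted p = 6.19e-06) and 0.44 (adjusted p = 4.11e-05), and Ppfibp1, a liprin bound by S100a4, rose by 0.47 (adjusted p = 6.04e-04). The calls of Myh10 (adjusted p = 0.263) and Ppfibp1 (adjusted p = 0.0897) were lost in the test against a 1.2-fold change.

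Among partners in growth control, Mdm2, the ubiquitin ligase of p53, had 557 ± 26.6 (SD, n = 6) in CRI-G1-RS cells and 1221 ± 64.2 (SD, n = 6) in CRI-G1-RR cells, a log2 difference of -1.11 (adjusted p = 1.12e-08 from limma). Cacybp, the ubiquitin pathway adaptor named for its binding of S100a6, had 2318 ± 215.5 (SD, n = 6) in CRI-G1-RS cells and 2304 ± 169.6 (SD, n = 6) in CRI-G1-RR cells (adjusted p = 0.693), so this probe set, the brighter of 2, did not follow S100a6. Fgf1, the growth factor that S100a13 helps to export, had 544 ± 50.6 (SD, n = 6) in CRI-G1-RS cells and 601 ± 35.4 (SD, n = 6) in CRI-G1-RR cells and did not pass (adjusted p = 0.137).

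Receptors for secreted S100 proteins and the phagocyte oxidase gave 0 calls among 7 measured genes by limma, where 39.2% of all genes were called. Of the 7, 5 had mean signals under 50, where a difference may go uncalled, so nothing is read from this 0. Ager, which encodes the receptor RAGE that binds S100b, had 39.0 ± 14.8 (SD, n = 6) in CRI-G1-RS cells and 38.4 ± 8.82 (SD, n = 6) in CRI-G1-RR cells. Tlr4, the receptor for S100a8 and S100a9, had 23.7 ± 9.21 (SD, n = 6) in CRI-G1-RS cells and 30.8 ± 8.97 (SD, n = 6) in CRI-G1-RR cells. Both had low signals in either line.

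Of 8 measured channels, pumps and related partners of S100 proteins, 3 were higher and 1 was lower in CRI-G1-RS cells. Over all genes, 39.2% were called in either direction, so nothing is read from these counts. Scn10a (adjusted p = 0.863 from limma), Htr1b (adjusted p = 0.906) and Pln (adjusted p = 0.156) did not pass. Kcnk3, the acid-sensitive background potassium channel that S100a10 binds, rose to 664 ± 37.7 (SD, n = 6) in CRI-G1-RS cells, against 163 ± 29.9 (SD, n = 6) in CRI-G1-RR cells, a log2 difference of 1.93 (adjusted p = 2.89e-08 from limma). Asic1, an acid-sensing sodium channel, rose by 0.53 (adjusted p = 1.54e-04). Ryr2, the calcium release channel that S100a1 binds in the heart, had signals of 43.0 to 71.3 in CRI-G1-RS cells and 110.4 to 144 in CRI-G1-RR cells, a log2 difference of -0.96 (adjusted p = 5.88e-06). Ryr1, the skeletal muscle form of the same channel, went the other way, with 49.9 ± 6.98 (SD, n = 6) in CRI-G1-RS cells and 34.1 ± 7.30 (SD, n = 6) in CRI-G1-RR cells, a log2 difference of 0.39 (adjusted p = 0.00841), a call that was lost in the test against a 1.2-fold change (adjusted p = 0.523). Atp2a2, the calcium pump of the endoplasmic reticulum, had 3211 ± 155 (SD, n = 6) in CRI-G1-RS cells and 3173 ± 114 (SD, n = 6) in CRI-G1-RR cells (adjusted p = 0.582).

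**Figure D4:**
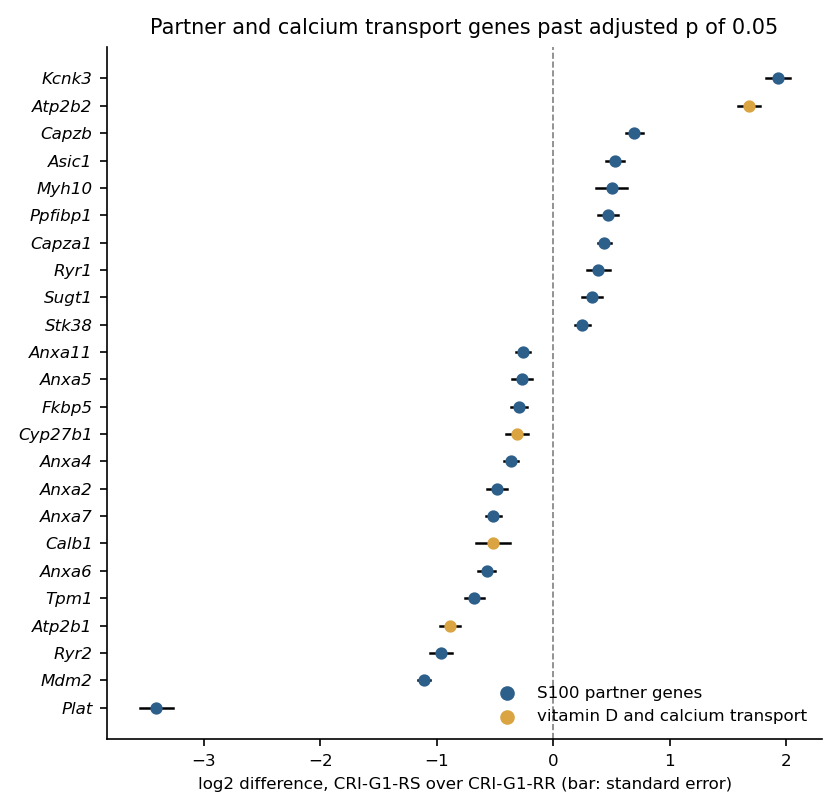
Log2 difference of CRI-G1-RS over CRI-G1-RR (horizontal axis) with its standard error for the partner genes (blue) and the vitamin D and calcium transport genes (yellow) that passed an adjusted p of 0.05 from limma. Plat lies at -3.41, 6 annexins lie below 0, and Kcnk3 and Atp2b2 lie highest, at 1.93 and 1.68.

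S100g works in the gut with an apical calcium channel and a basolateral calcium pump, under control of the vitamin D receptor. Of 13 genes of this route, 12 were measured, and 3 were lower and 1 was higher in CRI-G1-RS cells, beside 39.2% of all genes called in either direction. Atp2b1, the plasma membrane calcium pump of that route, had 737 ± 45.0 (SD, n = 6) in CRI-G1-RS cells and 1391 ± 215 (SD, n = 6) in CRI-G1-RR cells, a log2 difference of -0.89 (adjusted p = 5.18e-06 from limma). Its relative Atp2b2 went the other way, with 413 ± 25.8 (SD, n = 6) in CRI-G1-RS cells and 117 ± 22.3 (SD, n = 6) in CRI-G1-RR cells, a log2 difference of 1.68 (adjusted p = 3.11e-08). The apical channel gene Trpv6 had 58.0 ± 17.4 (SD, n = 6) in CRI-G1-RS cells and 41.5 ± 7.63 (SD, n = 6) in CRI-G1-RR cells (log2 difference 0.32, adjusted p = 0.133, and 0.42 with adjusted p = 0.0288 without CRI-G1-RS replicate 6), so it did not share the direction of S100g.

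Vdr, the vitamin D receptor, had a mean signal of 34.3 ± 9.51 (SD, n = 6) in CRI-G1-RS cells and 29.9 ± 7.94 (SD, n = 6) in CRI-G1-RR cells (adjusted p = 0.515). Cyp27b1, the enzyme that activates vitamin D, had a log2 difference of -0.31 (adjusted p = 0.0226 from limma), a call that was lost without CRI-G1-RS replicate 4 (adjusted p = 0.0509) or replicate 6 (adjusted p = 0.0518) and with the replicate number as a block (adjusted p = 0.0577). The larger calbindins are relatives of S100g by function rather than by family. Calb1 had signals of 0.9 to 5.7 in CRI-G1-RS cells and 3.3 to 18.1 in CRI-G1-RR cells (log2 difference -0.52, adjusted p = 0.0157), at the bottom of the range in both lines, and Calb2 had 112 ± 10.96 (SD, n = 6) in CRI-G1-RS cells and 96.7 ± 19.0 (SD, n = 6) in CRI-G1-RR cells (adjusted p = 0.252).

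The array profile of S100g was set beside those of 8651 other genes whose signal averaged 100 or more. Each profile was standardised over the 12 arrays, and likeness was the root mean square difference between profiles, with 0 for identical ones. The closest were Nherf1, a scaffold of the brush border, at 0.103, Acot4, an acyl-CoA thioesterase, at 0.109, and Cenpk, a kinetochore protein, at 0.111. Nherf1 had 372 ± 48.5 (SD, n = 6) in CRI-G1-RS cells and 2257 ± 204 (SD, n = 6) in CRI-G1-RR cells. Since the lines differ so widely for S100g, this likeness mostly orders genes by how cleanly they separate the lines. For S100a11, the gene with the highest log2 difference of the 10, the closest was Kars1, the lysyl-tRNA synthetase, at 0.294, followed by Rbm19 at 0.472 and Hsd17b12 at 0.492.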

How the data were processed

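Gene expression was measured in 6 CRI-G1-RS and 6 CRI-G1-RR samples. The linear signal intensities deposited by the authors, whose processing notes name GCOS 1.4, were used. Their trimmed mean (2%) was 250.068 to 250.075 on the 12 arrays, which had thus been scaled, and they are not the log2 robust multi-chip averages that the Methods describe. Signals lay between 0.0271 and 11366.1. Array number limits the precision.

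Signals were quantile normalized, taken as log2(signal + 16) and fitted in limma 3.58.1 under R 4.3.3. Cell type was the sole term, and p-values were Benjamini-Hochberg adjusted over 31099 probe sets. The fit was tested on simulated data, where it recovered most but not all changes and fewer of the smaller ones, so a gene that did not pass may still differ. Where a gene had several probe sets, the brightest on average was taken. Symbols are those of the platform's annotation (20832 probe sets with 1 symbol, 436 with several, 9831 with none), and positions are from RefSeq GRCr8. Pairs of CRI-G1-RS arrays correlated at 0.979 to 0.987, pairs of CRI-G1-RR arrays at 0.980 to 0.987 and pairs across lines at 0.952 to 0.965, and 0 pairs were identical.

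The members and lists were chosen with earlier results of these data known. The genes named are the members, each member's best known partner, the called genes of each list with the widest change (up to 6 per direction) and the 3 genes most like the member at either extreme. Others, among them Anxa4, Anxa5, Anxa11, Plau, Plg, Atp2a2, Calb2, Vdr, S100a14, S100a16, the cell type markers and the neighbours of S100g, were named after their values were seen, as were the role groups of the partner list. Alternatives were array medians or no further normalization, a filter at a mean signal of 50, leaving out _x_at and _s_at probe sets, the replicate block, an intensity trend, array weights, a pseudocount of 1, a test against a 1.2-fold change, another probe set per gene and leaving out each array.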

Additional observations from a re-analysis of the deposited data

Results flagged for a closer look

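In 66 groups of 6 arrays (33 genes in 2 lines), 7 had a single array far from the other 5, and chance alone flags about 1 group in 20. Among the members, S100a9 had 11.8 in CRI-G1-RS replicate 4, where the next array had 4.96, and S100a11 had 99.6 in CRI-G1-RR replicate 5, where the next had 60.8. Among other S100 genes, S100a7l2 had 3.15 in CRI-G1-RS replicate 6 and 11.5 in CRI-G1-RR replicate 5, and S100a16 had 89.0 in CRI-G1-RR replicate 3, where the next array had 40.3. Myh9 had 1434 in CRI-G1-RS replicate 2, where the next had 920.1, and Vdr had 52.3 in the same replicate, where the next had 35.4. The signals of S100a9 and S100a7l2 are so low that a difference of a few units is of no size.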

How the results depend on the processing

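The count of 6 S100 genes past the threshold was the same under every alternative run (6 in each of the 12 fits that left out 1 array), except the test against a 1.2-fold change, where S100a10 alone was lost. That test gave 4059 in place of 9860 probe sets in all, 1 of the other S100 genes in place of 3, 10 partner genes in place of 20, 2 genes of the vitamin D list in place of 4 and 5 neighbours in place of 20. With a mean signal of at least 50, 1 of the other S100 genes was called, because S100a5 and Tchh were then left out. With the probe set of smallest p for each gene, a choice that favours calls, 22 partner genes and 24 neighbours were called. A gene with several probe sets may therefore differ on one not shown here. Leaving out 1 array gave 9162 to 10010 probe sets, 3 to 3 other S100 genes, 19 to 22 partner genes, 3 to 4 genes of the vitamin D list and 17 to 20 neighbours. Over 56 named genes outside the members, 1137 of 1167 recomputed values kept their side of the threshold, 24 fell out of it, 6 came into it and 0 changed direction with a call. With CRI-G1-RR replicates 1 to 3 or 4 to 6 alone, chosen after seeing the data, 7588 and 8019 probe sets passed. Fewer samples were then tested. Same-numbered samples deviated together with correlations of -0.052 to 0.160, beside a mean of -0.008 for other pairs across the lines. The labels do not say which samples pair, so the numbers were not taken as pairs. These correlations cannot show that the samples are unpaired. With the replicate number as a block, 9204 probe sets and 6 members passed, and 2 of the 6 arrays of each line correlated best with their own number. Low signals limit S100a8, S100a9, S100a5 and Calb1.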
